A study of Mus musculus with 9 samples.

Results

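Cytosolic heat shock proteins are the chaperones that keep other proteins folded, and their genes are the standard readout of protein stress in a cell. The set described here held 10 genes of the 46517 in the expression table, chosen by name and not by level: the HSP70 genes Hspa1a, Hspa1b and Hspa8, the HSP90 genes Hsp90aa1 and Hsp90ab1, the HSP110 gene Hsph1, the small heat shock protein gene Hspb1, the J-domain genes Dnaja1 and Dnajb1, and Hsf1, the transcription factor that induces the others. All 10 were present in the table as single rows, and their positions are given on GRCm38 from the GENCODE M21 annotation.

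The RNA came from neutrophils of C57BL/6 mice that carried an orthotopically transplanted (OT) pancreatic tumor, grown from luciferase-expressing cells of the KPC pancreatic cancer model placed in the pancreas, at day 27 after transplantation. Neutrophils were sorted from bone marrow (Ly6G high), blood (Ly6G+) and tumor (Ly6G+) as live CD45+ cells that were also Ly6C+ and negative for CD3, B220 and NK1.1, with 3 libraries per compartment, each a pool of 5 mice. Every library therefore came from tumor-bearing animals, and no tumor-free group was analysed here. Of the 3 compartments only the tumor was digested with enzymes before sorting, so that digestion and residence in the tumor cannot be told apart in these data.

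Cytosolic chaperones work in a cycle. J-domain proteins such as Dnaja1 and Dnajb1 hand unfolded clients to HSP70, HSP110 resets HSP70 by exchanging its nucleotide, and HSP90 receives selected clients such as kinases and receptors for their last folding steps, while small heat shock proteins hold unfolded proteins in a state from which they can be rescued. Hspa8 and Hsp90ab1 encode the forms made constantly, whereas Hspa1a, Hspa1b and Hsp90aa1 encode the forms classically induced by heat or other stress. Under stress the trimer of HSF1 binds heat shock elements, inverted repeats of the bases GAA, in front of these genes.

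The promoters are shown because they carry the element through which this family is known to be switched on together. In the RefSeq promoter table (build GRCm38.p6) 6 of the 10 genes had an entry. The 250 bases before each start were searched for GAANNTTC and TTCNNGAA, a pair of facing GAA units that each read the same on both strands and can overlap one another, and 5 of the 6 promoters held a match, against 12.8% of all 32851 promoters in the table. Dnajb1 held none in this window. Matches are in capitals, and all sequences read 5′ to 3′ on the strand of the gene.
The whole windows of Hspa1a (chr17:34972157-34972406, minus strand) and Hspa1b (chr17:34959239-34959488, minus strand) follow.
Hspa1a: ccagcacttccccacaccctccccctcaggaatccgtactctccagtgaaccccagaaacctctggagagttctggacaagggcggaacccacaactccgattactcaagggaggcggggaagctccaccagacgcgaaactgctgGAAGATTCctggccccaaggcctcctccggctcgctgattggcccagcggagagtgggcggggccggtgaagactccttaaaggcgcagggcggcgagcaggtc
Hspa1b: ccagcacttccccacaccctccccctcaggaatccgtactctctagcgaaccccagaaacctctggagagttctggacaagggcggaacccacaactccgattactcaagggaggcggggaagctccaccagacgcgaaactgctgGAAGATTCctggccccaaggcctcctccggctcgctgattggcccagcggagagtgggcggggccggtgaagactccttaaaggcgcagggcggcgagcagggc
Around their matches, Hsph1 (chr5:149636351-149636380, minus strand), Hspb1 (chr5:135887772-135887859, plus strand) and Dnaja1 (chr4:40722333-40722362, plus strand) read as follows.
Hsph1: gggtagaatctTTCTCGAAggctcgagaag
Hspb1: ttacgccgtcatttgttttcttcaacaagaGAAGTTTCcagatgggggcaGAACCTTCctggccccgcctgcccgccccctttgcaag
Dnaja1: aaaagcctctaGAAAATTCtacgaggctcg
Hspa1a and Hspa1b differed at 3 of 250 bases and carried the same match, whose first base lay 104 bases before the start, so they are 1 sequence for this purpose. In the others the first base of the match lay 33 bases (Hsph1), 117 and 97 bases (Hspb1) and 124 bases (Dnaja1) before the start. Where the table lists several starts (Hsph1, Dnaja1 and Dnajb1), the most upstream was taken. The GENCODE genes of Hsph1 and Dnaja1 begin farther upstream than these starts, so their printed matches lie inside the gene positions given below. A match is a description of the letters, and binding of HSF1 was not measured.

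Values were deposited as log2 FPKM, a level per gene length and library size. The reads behind them, recovered from the values, came to between 4580807 and 7949367 per library, so that a level resting on a handful of reads is imprecise and is given here with its reads. Neutrophil identity was checked with 10 markers of mature neutrophils, among them Ly6g, S100a8 and Csf3r: all 10 had reads in every library, and their summed level in reads per 1000000 of the scaled library size (RPM) was 53333 to 57098 in bone marrow and 42845 to 46567 in blood, but 11804 to 15034 in tumor. The tumor libraries also held 10 of 10 tumor epithelium markers (keratins, Epcam and others) at 3386, 2697 and 5125 RPM in replicates 1 to 3, against 10.1 to 13.6 in bone marrow. In blood these markers were at 27.8, 173 and 25.4 RPM, and blood replicate 2 stood apart with 406 reads of Krt8 where the other blood libraries had 3 and 5. Fibroblast markers (9 of 9) reached 1127 to 1271 RPM in tumor against at most 12.5 in the other libraries, and 5 to 6 of 6 pancreatic acinar markers reached 598, 412 and 1569 RPM against at most 3.40, with Amy2a5 at 0 in tumor replicates 1 and 3. Each count of heat shock genes called is also given without blood replicate 2 and without tumor replicate 3, the library with the most epithelial and acinar RNA. Tumor replicates 1 and 2 still held epithelium markers at 3386 and 2697 RPM, so these counts cannot show the part of other cells. The part of other cells in the heat shock results was not tested, and in bulk RNA fewer cells of a type and less RNA per cell cannot be told apart.

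All 10 heat shock genes were higher in the tumor libraries than in those of blood and of bone marrow (limma, Benjamini-Hochberg adjusted p under 0.05 over 7794 genes tested). Over all genes tested, 28.1% were higher in tumor than in blood and 22.4% were higher in tumor than in bone marrow. Only 6 of the 10, Hspa1a, Hspa8, Hsp90aa1, Hsp90ab1, Dnaja1 and Dnajb1, would have passed the expression filter without the tumor libraries, and all 6 of these were higher. The other 4, Hspa1b, Hsph1, Hspb1 and Hsf1, entered the test only through the tumor libraries and therefore had to be higher there, so their calls are no support. Between blood and bone marrow 1 gene was higher in blood (Hspa1a), 2 were lower (Hsp90aa1 and Hsp90ab1) and 7 did not pass. Neither count exceeded the shares over all genes tested, 20.6% higher and 23.6% lower. Without blood replicate 2, or without tumor replicate 3, 10 genes were still higher in tumor than in blood and 9 were higher than in bone marrow, with Hsp90ab1 lost each time. Blood against bone marrow gave 1 higher and 2 lower without blood replicate 2, and 2 higher and 2 lower without tumor replicate 3, where Dnaja1 was added.

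**Figure D1:**
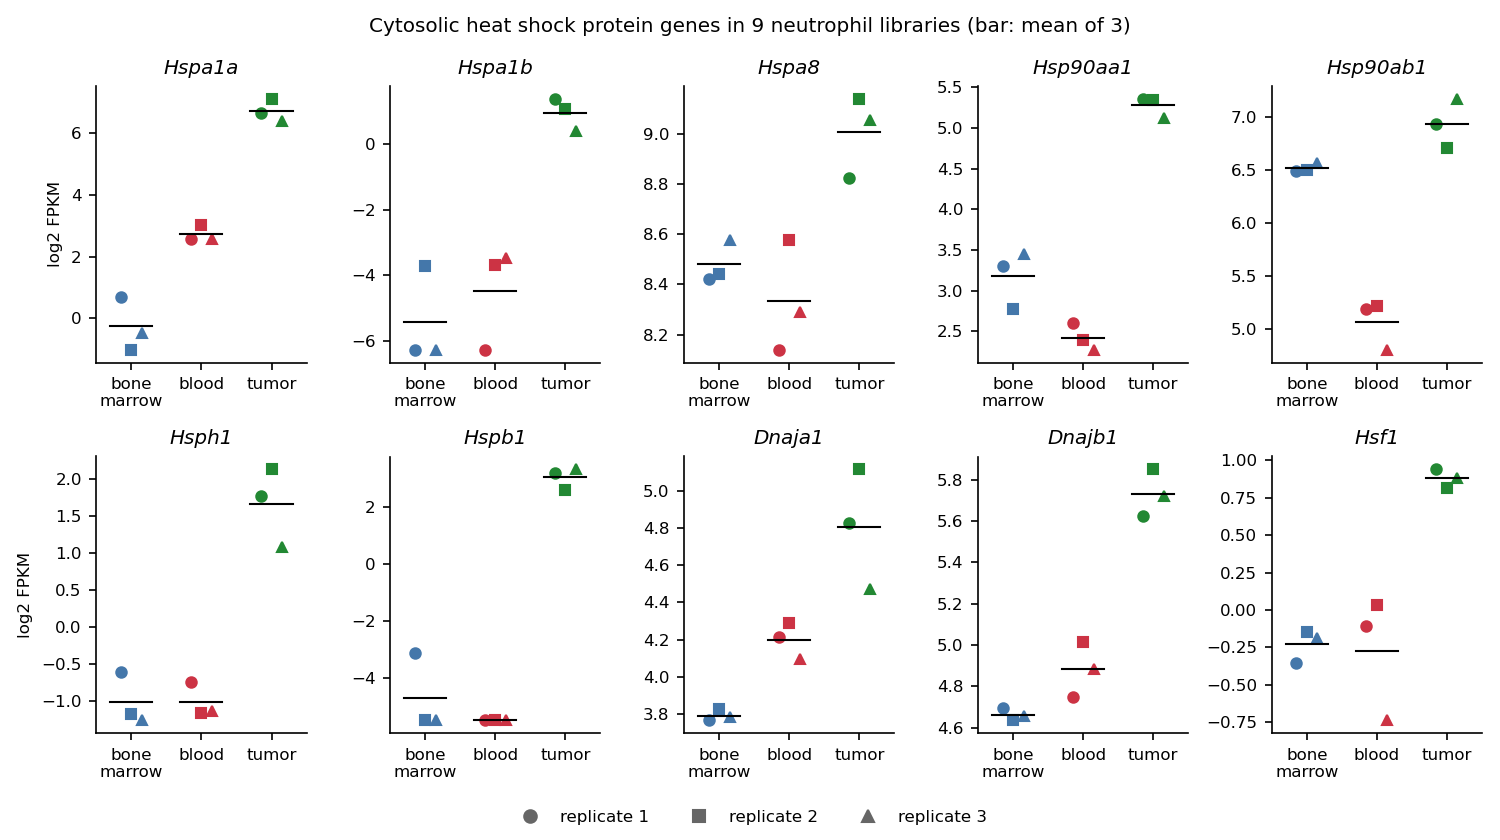
Deposited log2 FPKM of the 10 genes in each library, by compartment, with a panel and its own vertical axis per gene, symbols for the replicates and a bar for the mean of 3. In every panel the 3 tumor libraries sit above the 6 others, but Hspa1b, Hsph1, Hspb1 and Hsf1 entered the test only through the tumor libraries. How many of all genes are separated in this way was not counted. Over all genes tested 28.1% were called higher in tumor than in blood and 22.4% higher than in bone marrow. In blood Hspa1a sits above bone marrow while both HSP90 genes sit below it.

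Hspa1a (chr17:34969190-34972156), which encodes the stress-inducible HSP70, had the steepest gradient among the genes with reads in every library. Its log2 FPKM was 0.70, -1.03 and -0.47 in the bone marrow libraries, 2.56, 3.02 and 2.58 in blood and 6.66, 7.13 and 6.39 in tumor, and these rested on 32, 8 and 14 reads, 69, 134 and 83 reads, and 1865, 3145 and 1974 reads. The 3 compartments were fully separated, with bone marrow lowest and tumor highest. On the log2 scale the tumor level exceeded that of blood by 4.01 (SE 0.42, adjusted p = 9.85e-05), a 16.1-fold difference, and that of bone marrow by 6.99 (SE 0.42, adjusted p = 8.29e-06), a 127.5-fold difference. Blood exceeded bone marrow by 2.99 (SE 0.42, adjusted p = 0.000965), or 7.92-fold.

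Hspa1b, its neighbour 9951 bases away on chromosome 17 (chr17:34956436-34959238), encodes nearly the same protein and was counted at a far lower level. It had 0, 1 and 0 reads in bone marrow, 0, 1 and 1 in blood and 45, 44 and 29 in tumor, so it was nearly undetected outside the tumor libraries. Pooled over libraries, the 118 tumor reads stood against 2 in blood, a 38.7-fold ratio with an exact interval of 10.5 to 323, and against 1 in bone marrow, a 103-fold ratio (18.2 to 4110). These intervals cover counting error only. Of the read-length windows (the length of 1 sequenced read) of the Hspa1b transcript, 40.3% occurred letter for letter in Hspa1a, and of the Hspa1a windows 37.9% occurred in Hspa1b. How reads that fit both genes were counted is not given in the sources used here, so the split between the pair is uncertain.

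Hspa8 (chr9:40800984-40810087), the constitutive HSP70 that also strips clathrin from vesicles, was abundant everywhere and moved little. The log2 FPKM was 8.42, 8.44 and 8.58 in bone marrow, 8.14, 8.58 and 8.29 in blood and 8.83, 9.14 and 9.05 in tumor. Blood and bone marrow overlapped, and every tumor library lay above both. Tumor was higher than blood by 0.67 (SE 0.14, adjusted p = 0.00372), 1.59-fold, and higher than bone marrow by 0.53 (SE 0.14, adjusted p = 0.0141), 1.44-fold. The difference of blood from bone marrow was -0.15 (95% interval -0.47 to 0.18, adjusted p = 0.443). The call against bone marrow was lost under quantile normalization, with a difference of 0.24 and an adjusted p of 0.242. Here too 55.9% of read-length transcript windows were shared with other genes, mostly the processed copy Gm26825, which itself had 0 or 1 read per library.

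Within each library the reads per exon length of Hspa1a were set against those of Hspa8. Bone marrow had a ratio of 0.00270 ± 0.00184, blood 0.0208 ± 0.0012 and tumor 0.214 ± 0.048 (SD, n = 3), and no 2 compartments overlapped. In tumor replicates 1, 2 and 3 the ratio was 0.228, 0.253 and 0.161. The exact two-sided permutation p was 0.1 for each pair of compartments, the smallest that 3 against 3 libraries allow.

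The HSP90 pair ran a different course, with its lowest levels in blood. Hsp90aa1 (chr12:110690605-110702728), the inducible form, had a log2 FPKM of 3.30, 2.78 and 3.45 in bone marrow, 2.60, 2.39 and 2.27 in blood and 5.36, 5.35 and 5.13 in tumor. All 3 compartments were separated, with blood lowest. Tumor exceeded blood by 2.86 (SE 0.18, adjusted p = 9.66e-06), 7.25-fold, and bone marrow by 2.10 (SE 0.18, adjusted p = 4.75e-05), 4.29-fold, and blood lay below bone marrow by a log2 difference of -0.76 (SE 0.18, adjusted p = 0.0116). Of its transcript windows 36.0% were shared with other genes, mostly with Gm12346, which had 5 to 56 reads per library.

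Hsp90ab1 (chr17:45567775-45573271), the constant form, had a log2 FPKM of 6.49, 6.49 and 6.56 in bone marrow, 5.19, 5.22 and 4.80 in blood and 6.93, 6.70 and 7.17 in tumor. Blood was again fully below bone marrow, and the tumor libraries lay above bone marrow by a narrow margin. The log2 difference of blood from bone marrow was -1.45 (SE 0.15, adjusted p = 0.000229), a 2.73-fold lower level, and tumor exceeded blood by 1.87 (SE 0.15, adjusted p = 2.65e-05), 3.64-fold. Tumor exceeded bone marrow by only 0.42 (SE 0.15, adjusted p = 0.0437), 1.34-fold. This last call was lost in 11 of 22 alternative settings. The adjusted p was 0.104, 0.105 and 0.0791 without bone marrow replicate 1, 2 or 3, 0.0548 and 0.0520 without blood replicate 1 or 2, 0.0887 and 0.12 without tumor replicate 1 or 3, and 0.00357 to 0.12 over all settings. The Hsp90ab1 transcript shared no read-length window with another gene.

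The ratio of Hsp90aa1 to Hsp90ab1, in reads per exon length, averaged 0.169 ± 0.036 in bone marrow and 0.269 ± 0.028 in blood, and 0.544 ± 0.126 in tumor (SD, n = 3). The compartments did not overlap, and the exact two-sided permutation p was 0.1 for each pair. For the J-domain pair the tumor ratios overlapped those of both other compartments: Dnajb1 to Dnaja1 averaged 1.29 ± 0.26 in tumor, where blood had 1.08 ± 0.10 and bone marrow 1.22 ± 0.05, with an exact permutation p of 0.2 for tumor against blood and of 1 for tumor against bone marrow. Blood and bone marrow did not overlap for this pair (exact permutation p = 0.1).

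**Figure D2:**
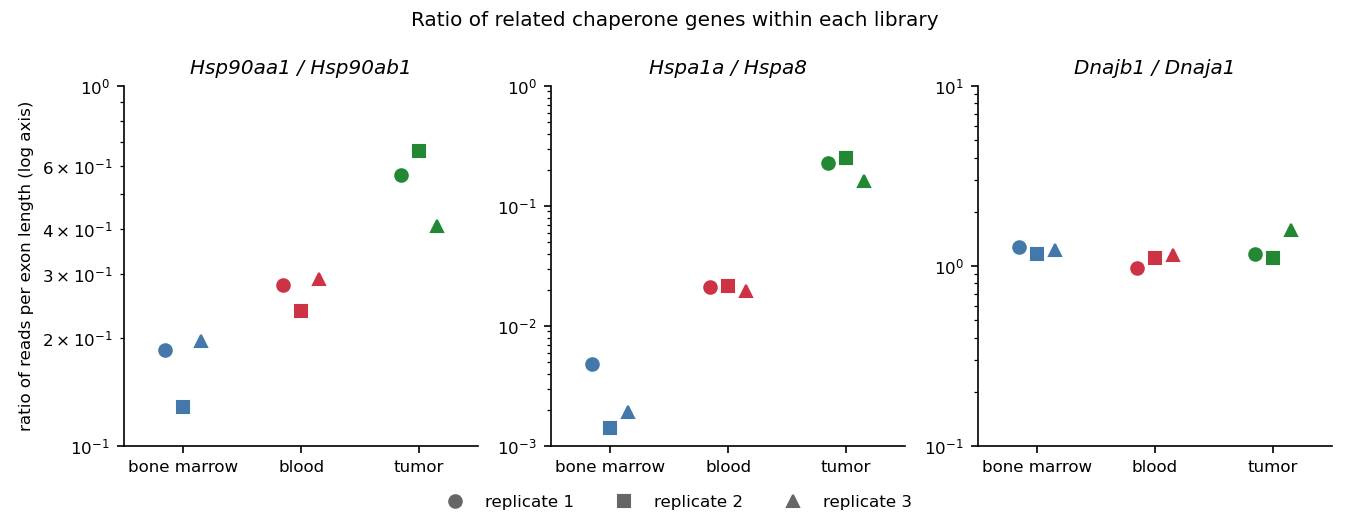
Ratio of reads per exon length of 2 related genes in each of the 9 libraries, on log axes, with symbols for the replicates. Hsp90aa1 over Hsp90ab1 and Hspa1a over Hspa8 are ordered bone marrow, blood, tumor without overlap, and tumor replicate 3 has the lowest tumor ratio of both, 0.408 and 0.161, while Dnajb1 over Dnaja1 lies between 0.970 and 1.59 throughout.

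Hsph1 (chr5:149614287-149636376), the HSP110 that serves HSP70 as a nucleotide exchange factor, had a log2 FPKM of -0.60, -1.18 and -1.26 in bone marrow, -0.74, -1.16 and -1.13 in blood and 1.77, 2.14 and 1.09 in tumor. Bone marrow and blood coincided, and the tumor libraries lay clearly above. Tumor exceeded blood by 2.68 (SE 0.32, adjusted p = 0.000206), 6.39-fold, and the difference from bone marrow was of the same size (2.68, SE 0.32, adjusted p = 0.000251). Hsph1 entered the test only through the tumor libraries, so these calls are no support. Between blood and bone marrow the difference was 0.00 with a 95% interval of -0.74 to 0.75, so a difference of up to about that size in either direction was not detectable.

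Hspb1 (chr5:135887919-135889563), the small heat shock protein also called HSP25 in mouse, was a tumor library transcript. It had 1, 0 and 0 reads in bone marrow, none in the 3 blood libraries and 94, 75 and 132 in tumor. Against a floor of 3 counts over the blood libraries, the level in tumor was at least 65.7-fold higher, and against the single bone marrow read the ratio was 263-fold with an exact interval of 46.9 to 10431. Its highest value, unlike that of Hspa1a, fell in tumor replicate 3. Hspb1 is also made by epithelial cells, and tumor epithelium markers were highest in that same library, at 5125 RPM, whose part in the value was not tested. Of its transcript windows 53.4% were shared with the pseudogene Hsp25-ps1, which had at most 1 read per library.

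The J-domain genes rose by less. Dnaja1 (chr4:40722150-40737149) had a log2 FPKM of 3.77, 3.83 and 3.78 in bone marrow, 4.21, 4.29 and 4.10 in blood and 4.83, 5.12 and 4.47 in tumor, an order without overlap. Tumor exceeded blood by 0.60 (SE 0.15, adjusted p = 0.00899), 1.52-fold, and bone marrow by 1.01 (SE 0.15, adjusted p = 0.000815), 2.02-fold. For blood over bone marrow the difference was 0.41 with an adjusted p of 0.0613. That adjusted p ranged from 0.00673 to 0.157 over the alternatives, and it was 0.0211 without tumor replicate 2 and 0.0129 without tumor replicate 3, libraries that enter this comparison only through the shared estimate of spread.

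Dnajb1 (chr8:83608193-83612653), the HSP40 that feeds clients to inducible HSP70, had a log2 FPKM of 4.70, 4.64 and 4.66 in bone marrow, 4.75, 5.01 and 4.88 in blood and 5.63, 5.85 and 5.72 in tumor. It was among the least variable of the genes within a compartment, and the tumor libraries were well separated. Tumor exceeded blood by 0.85 (SE 0.09, adjusted p = 0.00012), 1.80-fold, and bone marrow by 1.07 (SE 0.09, adjusted p = 4.57e-05), 2.10-fold. The difference of blood from bone marrow, 0.22, did not pass (95% interval 0.01 to 0.43, adjusted p = 0.0897).

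Hsf1 (chr15:76477422-76501913), whose protein is regulated mostly after translation, was a lowly expressed gene of 66 to 344 reads per library. Its log2 FPKM was -0.35, -0.15 and -0.19 in bone marrow, -0.11, 0.03 and -0.74 in blood and 0.94, 0.81 and 0.88 in tumor. Bone marrow and blood overlapped, and tumor lay above both. Tumor exceeded blood by 1.15 (SE 0.23, adjusted p = 0.00268), 2.22-fold, and bone marrow by 1.11 (SE 0.23, adjusted p = 0.00397), 2.15-fold, while blood and bone marrow differed by -0.04 (95% interval -0.57 to 0.48, adjusted p = 0.905). Hsf1 too entered the test only through the tumor libraries, so its calls of higher in tumor are no support.

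**Figure D3:**
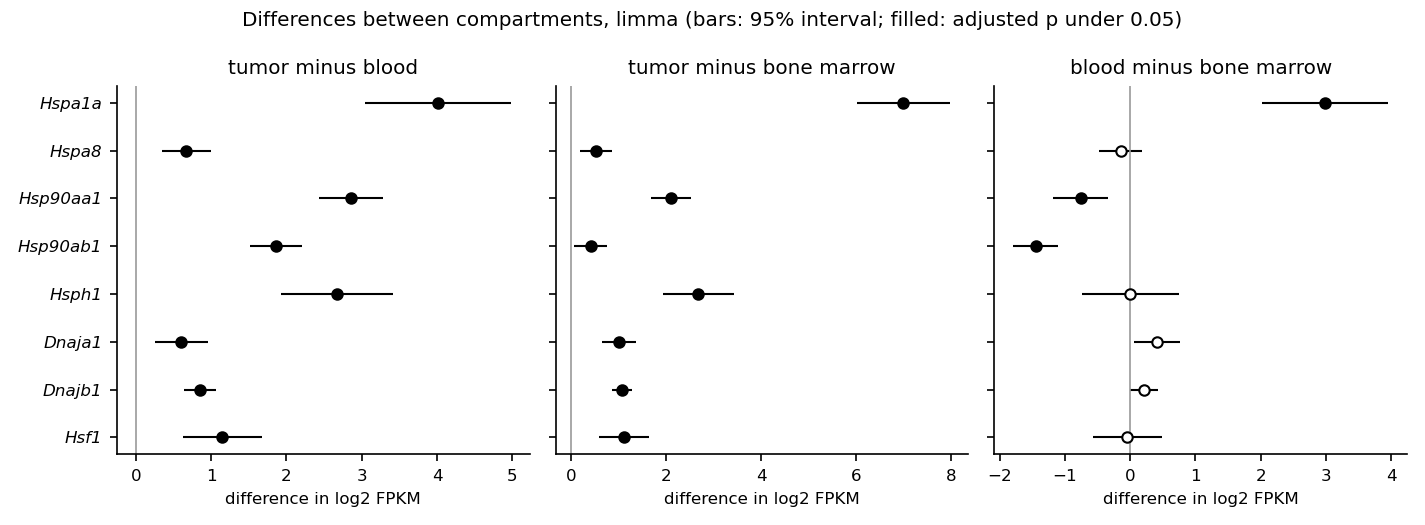
Log2 differences between compartments for 8 of the 10 genes, as points with 95% intervals from limma, filled where the adjusted p is under 0.05. Hsph1 and Hsf1 entered the test only through the tumor libraries. Hspa1a lies farthest from 0 in each panel, Hspa8 and Hsp90ab1 lie nearest to it for tumor minus bone marrow (0.53 and 0.42), and Hspa1b and Hspb1 are left out because they had 2 reads or fewer in all of blood and in all of bone marrow.

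Compared per exon length, so that genes can be ranked, Hspa8 led in every compartment with 350 ± 21 FPKM per exon length in bone marrow, where blood had 319 ± 50 and tumor 506 ± 56 (SD, n = 3). Hsp90ab1 followed at 168 ± 5, 62.1 ± 9.5 and 226 ± 37. In bone marrow the next 3 genes, Dnajb1, Hsp90aa1 and Dnaja1, lay at 29.5, 28.5 and 24.1, and neighbours in that order overlapped. In tumor Hsp90aa1 at 120 ± 11 and Hspa1a at 108 ± 29 came next and overlapped, followed by Dnajb1 at 62.0 ± 4.9 and Dnaja1 at 49.4 ± 10.9, which overlapped as well. Hspa1a averaged 0.933 in bone marrow, where it overlapped Hsph1 near the bottom of the order, and 6.65 in blood, where it lay between Hsp90aa1 and Hsf1. At the lower end in tumor were Hspb1 (13.5), Hsph1 (10.05), Hsf1 (6.09) and Hspa1b (1.99). Exon length here counts every base of any annotated exon of a gene. It was 7099 bases for Hsf1, 7266 for Hsph1 and 8629 for Dnaja1. The transcripts searched for shared windows had 2102, 3802 and 5622 bases. The places of these genes in the order, and of genes at levels near theirs, therefore depend on the length chosen. No order by transcript length was made.

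Summed, the 10 genes accounted for 2384 to 2593 RPM in bone marrow and 1894 to 2350 RPM in blood, rising to 4135 to 4752 RPM in tumor. As a share of all reads this was 0.190 to 0.229%, 0.163 to 0.192% and 0.471 to 0.531%. Tumor was separated from both other compartments on either measure, and Hspa8 was the largest term of the sum, with 11868, 17997 and 17809 of the 25663, 35934 and 34530 reads in the tumor libraries.

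The partners of HSP70, a list of 22 genes of which 15 were tested, rose in part. In tumor against blood 9 were higher and 2 lower, with a median log2 difference of 0.88 (all genes -0.17), and in tumor against bone marrow 7 were higher and 2 lower, median 0.42 (all genes -0.21). Hspa4l, Bag2 and Bag3, 3 of the 15, passed the filter only through the tumor libraries and had to be higher there. The background was 28.1% and 22.4% of all genes tested for a higher call, and 34.5% and 32.9% for a lower call. Bag3, an HSP70 exchange factor of the heat shock response, rose by 3.14 over blood (adjusted p = 0.00049) and by 2.92 over bone marrow (adjusted p = 0.000886). Its relative Bag2 had 526 reads in tumor, 59 in bone marrow and none in blood. St13, the HSP70 interacting protein Hip, rose by 1.52 and 1.82 (adjusted p = 9.52e-06 and 5.12e-06), and Hspa4l, a relative of Hsph1, by 1.87 and 1.23.

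Not all HSP70 partners moved this way. Hspa4, another HSP110 relative, rose over blood by 0.88 (adjusted p = 0.000823) but was at 0.13 against bone marrow (adjusted p = 0.475), Dnajb2 rose by 0.94 and 1.75, and Dnajc7 fell by 0.96 against blood (adjusted p = 0.00207) and by 0.84 against bone marrow (adjusted p = 0.0049). Dnajc5, the cysteine string protein of secretory vesicles, was also lower, at -0.27 and -0.32 (adjusted p = 0.0331 and 0.0213), but this turned to 0.17 and 0.13 with plain library totals, and neither difference passed under quantile normalization (adjusted p = 0.987 and 0.169). Dnajb4 stayed below the expression filter with 80 reads in bone marrow and 109 in blood, and with 390 in tumor. When plain library totals replaced the scaled ones, the counts became 11 higher and 1 lower against blood, and 11 higher and 0 lower against bone marrow.

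The partners of HSP90, 15 genes all tested, split as well. Against blood 7 were higher and 3 lower (median 0.26), against bone marrow 4 were higher and 2 lower (median 0.03), and in blood against bone marrow 7 were lower (median -0.53). Medians over all genes were -0.17, -0.21 and -0.04. Over all genes tested 28.1% and 22.4% were higher in the tumor comparisons, so that 4 of 15 against bone marrow is near the background. Lower calls made up 34.5% and 32.9% of all genes tested in the tumor comparisons, and 23.6% in blood against bone marrow. The immunophilin Fkbp4 rose by 2.80 over blood (adjusted p = 5.94e-05) and by 1.95 over bone marrow (adjusted p = 0.000468). Stip1, the adaptor Hop that links HSP70 to HSP90, rose by 0.93 and 0.72 (adjusted p = 0.000196 and 0.000901), and the cyclophilin Ppid by 1.94 and 1.09.

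Chordc1, an HSP90 partner known as a heat shock target, and the phosphatase Ppp5c were higher than in blood, by 2.03 and 2.57, with differences from bone marrow of 0.24 and 0.03 that did not pass (adjusted p = 0.461 and 0.937). Ahsa1, the activator of the HSP90 ATPase, gave 0.01 against blood and -0.25 against bone marrow (adjusted p = 0.956 and 0.0518), and these signs and calls depended on the scaling: with plain library totals they were 0.46 (adjusted p = 0.00821) and 0.21. Fkbp5, Tomm34 and Sugt1 gave -1.01, -0.54 and -0.22 against blood (adjusted p = 0.0204, 0.0183 and 0.385) and -0.66, -0.43 and -0.88 against bone marrow (adjusted p = 0.101, 0.0506 and 0.00738). With plain library totals the list gave 9 higher and 1 lower against blood, and 6 higher and 1 lower against bone marrow.

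Of 7 other small heat shock protein genes, 1 passed the filter. Hspb6 was higher than in blood by 1.41 (adjusted p = 0.00101) and than in bone marrow by 1.64 (adjusted p = 0.000583). The others were rare: Hspb8 had 0 reads in bone marrow and 2 in blood, and it had 69 in tumor, and Cryab, the lens and muscle crystallin, had 2, 5 and 61. Of 4 other genes of the HSF group, Hsf2 was below the filter with 34, 17 and 84 reads, and Hsbp1, which encodes a binding protein of HSF1, was tested and gave -0.01 against blood and -0.10 against bone marrow (adjusted p = 0.942 and 0.593).

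Chaperones outside the heat shock set gave a broad rise over blood and a smaller one over bone marrow. Of 11 tested genes of the TRiC chaperonin, which folds actin and tubulin, and of its partner prefoldin, 8 were higher and 1 lower than in blood (median 1.47), and 6 were higher and 2 lower than in bone marrow (median 0.54). The shares of all genes tested were 28.1% higher and 34.5% lower than in blood (median -0.17). Against bone marrow they were 22.4% and 32.9% (median -0.21). Cct3, Tcp1 and Cct5 rose over blood by 3.59, 2.61 and 1.66 and over bone marrow by 2.19, 0.83 and 0.92. The prefoldin genes Pfdn5 and Vbp1 went the other way, at -0.93 and -0.31 against blood (adjusted p = 0.00306 and 0.165) and -0.51 and -0.69 against bone marrow (adjusted p = 0.0494 and 0.0126), and with plain library totals 8 of the list were higher and none lower against bone marrow.

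Mitochondrial chaperones rose over blood without an exception among those tested. All 6 that were tested of 8 were higher than in blood (median 3.47), 5 were higher than in bone marrow (median 1.61), and 5 were lower in blood than in bone marrow. Over all genes tested 28.1% were higher in tumor than in blood (median -0.17) and 22.4% higher than in bone marrow (median -0.21). In blood against bone marrow 23.6% were lower. Hspe1, Lonp1 and Clpp, 3 of these 6, passed the filter only through the tumor libraries and had to be higher there, so their calls are no support. Hspd1 and Hspe1, the HSP60 and HSP10 that form a folding chamber together, rose over blood by 3.34 and 4.40 and over bone marrow by 1.54 and 2.28. Hspa9, the mitochondrial HSP70, rose by 3.60 and 2.40, and the proteases Lonp1 and Clpp by 3.60 and 1.64 over blood and by 1.67 and 1.29 over bone marrow.

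Of 12 chaperones of the endoplasmic reticulum, 10 were higher in tumor than in blood (median 2.03), 7 were higher and 1 lower than in bone marrow (median 0.75), and 10 were lower in blood than in bone marrow. Among all genes tested 28.1% were higher in tumor than in blood (median -0.17). Against bone marrow 22.4% were higher and 32.9% lower in tumor (median -0.21), and 23.6% were lower in blood. Hspa5, the HSP70 known as BiP, rose by 1.23 over blood and by 1.32 over bone marrow, with no call between blood and bone marrow (0.08, adjusted p = 0.637). Hsp90b1, the HSP90 known as GRP94, rose by 2.04 and 0.77, Dnajb9 by 2.06 and 1.71, Canx by 1.81 and 0.59 and Pdia6 by 2.17 and 1.06. Sdf2l1 was higher than in blood by 2.02 (adjusted p = 7.06e-05) and fell by 1.08 against bone marrow (adjusted p = 0.00225).

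**Figure D4:**
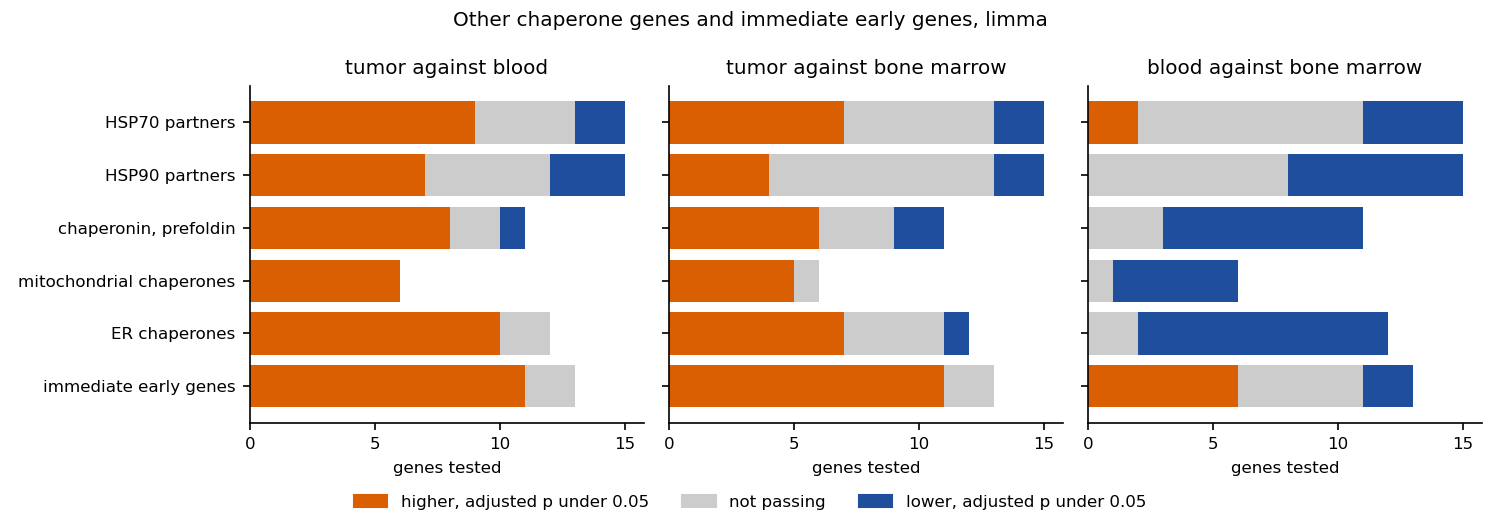
Number of tested genes of 6 lists that were higher, lower or not passing in each comparison (limma, adjusted p under 0.05), as stacked bars. The blue lower segments of the folding lists are widest in blood against bone marrow, with 10 of 12 endoplasmic reticulum chaperones, while in tumor against blood the orange higher segments take 10 of 12 endoplasmic reticulum chaperones and 7 of 15 HSP90 partners. The shares over all genes tested were 23.6% lower in blood against bone marrow and 28.1% higher in tumor against blood.

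In blood, genes of other folding machines were lower than in bone marrow, and Hspa1a was not. In blood relative to bone marrow 8 of 11 chaperonin and prefoldin genes, 5 of 6 mitochondrial and 10 of 12 endoplasmic reticulum chaperones were lower and none of these 3 lists had a gene that was higher, against 23.6% lower over all genes tested. Medians were -0.75, -1.50 and -1.17, beside -0.04 for all genes. Both cytosolic HSP90 genes shared that direction, whereas Hspa1a was 7.92-fold higher in blood. Dnaja1 and Dnajb1 had differences above 0 that did not pass. Markers of cell maturity and of other cells also differed in this comparison. All 8 immature neutrophil markers (granule genes such as Mpo and Elane) were lower in blood, with a summed level of 2184 to 3505 RPM against 87376 to 100252 in bone marrow, and so were all 6 proliferation markers, at 32.4 to 43.1 against 561 to 655 RPM. In tumor these sums were 6202 to 9214 and 171 to 260 RPM, above blood and below bone marrow. These marker sums therefore also differed in both tumor comparisons. Against blood 4 of the 8 immature markers were higher in tumor, beside 28.1% over all genes tested. Mpo and Elane stayed rare in tumor, at 33 to 43 and 10 to 31 reads per library. Which cells this marker RNA came from was not tested. All 6 platelet markers were higher in blood, at 556 to 776 RPM against 8.13 to 13.6. Macrophage markers summed to 1494 to 1671 RPM in blood and to 442 to 497 in bone marrow. The part of cell maturity and of these other cells in the heat shock values was not tested.

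Immediate early genes, which are switched on within minutes by signals and by tissue handling alike, were read beside the heat shock genes. Of 13 tested, 11 were higher in tumor than in blood (median 2.14) and 11 were higher than in bone marrow (median 2.21), and in blood against bone marrow 6 were higher and 2 lower, where the shares over all genes tested were 28.1%, 22.4% and, for blood, 20.6% higher and 23.6% lower. Fosb, 1 of the 13, passed the filter only through the tumor libraries, so its calls of higher in tumor are no support. Egr1 rose by 7.94 and 6.63 (adjusted p = 2.62e-06 and 3.62e-06), Nr4a1 by 3.60 and 5.75, Ier3 by 3.06 and 4.96, Jun by 3.07 and 2.46 and Fos by 2.14 and 1.60. Bone marrow libraries summed to 6553 to 8267 RPM for these genes, blood libraries to 12403 to 13035 and tumor libraries to 29165 to 38583. Within the tumor group it was 31664, 38583 and 29165 RPM in replicates 1, 2 and 3, and Hspa1a had its highest and lowest tumor values in the same replicates 2 and 3, as did Hsph1 and Dnaja1. Hsp90ab1 and Hspb1 ran the other way, lowest in replicate 2 and highest in replicate 3, and the other 5 genes had other orders. Tumor epithelium markers were lowest in replicate 2 and highest in replicate 3. With 3 libraries this is a description, and the part of tissue digestion, of immediate early induction and of epithelial RNA in the heat shock values was not tested.

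**Figure D5:**
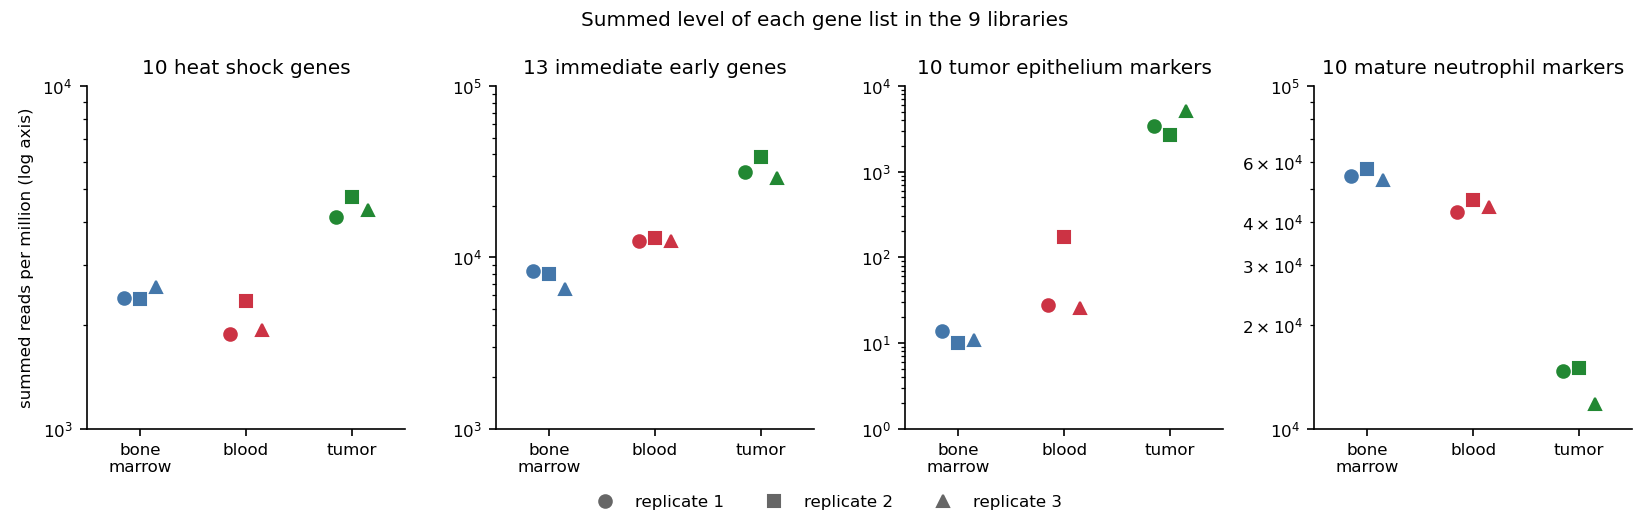
Summed RPM of 4 gene lists in the 9 libraries, on log axes, with symbols for the replicates. Heat shock, immediate early and epithelium sums are all highest in tumor, where replicate 2 has the highest heat shock sum (4752 RPM) and the lowest epithelium sum (2697 RPM), and blood replicate 2 stands apart in the epithelium panel at 173 RPM.

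Genes with the profile most like Hspa1a over the 9 libraries, by mean absolute difference of centred log2 FPKM among the genes tested, were B3gnt3 (0.45), a glycosyltransferase gene, Krt7 (0.46), a keratin gene of the epithelium list, and Gm26809 (0.53), a predicted gene. B3gnt3 had as few as 1 read in a library. Krt7 had 8 to 16 reads in bone marrow, 39, 77 and 53 in blood and 931, 1177 and 1513 in tumor, whereas Krt8 had 3, 406 and 5 reads in blood. Most like Hspa8 were Rraga (0.11), which encodes a GTPase of nutrient sensing, Strap (0.11) and Gorasp2 (0.11), a Golgi stacking gene. Rraga rose over blood by 0.71 and over bone marrow by 0.69 (adjusted p = 0.00178 and 0.00265).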

How the data were processed

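Sorted neutrophils from bone marrow, blood and tumor (3 libraries each, pools of 5 mice, from independent experiments) were sequenced after SMART-Seq v2 amplification with paired reads of 151 bases. Per the labels and the study's methods, the authors aligned reads to GRCm38 with STAR 2.5.2b, counted them per gene of GENCODE M7 with featureCounts 1.5.0 and deposited log2 FPKM. The submitters’ processing notes also list edgeR 3.8.6. The library size behind these values was the read total times a factor of 0.796 to 0.881 (bone marrow), 0.818 to 0.863 (blood) or 1.08 to 1.22 (tumor). Those values divide by the length of the whole gene for most genes, so levels were compared between genes only after rescaling to exon length, with GENCODE M21 exons. The deposited log2 values step in whole reads. These were recovered for 100% of 46517 genes (tolerance 0.001 reads), which gave 4580807 to 7949367 reads per library. Depth limits the precision of genes with few reads, and intervals cover counting error only.

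Genes over 0 log2 FPKM in at least 3 libraries (7794) were fitted on the deposited log2 scale, with no added pseudocount, with limma 3.58.1 (R 4.3.3), 3 groups and an intensity trend, and p-values were adjusted by Benjamini-Hochberg at 0.05. A small constant that the authors added before the log, 0.143 to 0.287 reads, understates changes of genes with few reads. Fold intervals of the rarest genes come from exact binomial limits at 95%, and ratios were tested by exact permutation. Scripts were tested on simulated data. Replicates are independent experiments, so p-values measure the spread between pools. RNA was amplified without molecular identifiers.

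The genes and lists were chosen with earlier results of these data known. The text names all 10 heat shock genes, up to 3 genes per list with the smallest adjusted p in each direction in both tumor comparisons, a set of named partners and immediate early genes, and the 3 genes most like Hspa1a and Hspa8. Genes outside this rule were named after their values were seen: Gm26825, Gm12346 and Hsp25-ps1, for shared sequence, and Hsbp1, Amy2a5, Krt8 and Krt7 as markers. A gene of the HSP90 partner list that the rule names is not reported here. Marker lists were summed as RPM. Alternatives were other filters, pseudocounts of 1 and 0.1, normalizations, tests and libraries left out. Promoters are RefSeq, GRCm38.p6.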

Additional observations from a re-analysis of the deposited data

How the results depend on the processing

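Every heat shock gene was recomputed under 22 alternatives (21 for Hsf1, Hsph1 and Hspa1b, which a filter of log2 FPKM over 2 removed). No called difference changed sign, while the differences of blood from bone marrow near 0 did for Hsf1 (-0.19 to 0.25) and Hsph1 (-0.13 to 0.36). Of the single-gene results 632 kept their side of the threshold, 12 lost it and 7 gained it. The counts higher in tumor were 9 to 10 with all 10 genes tested, and 7 of 7 under that stricter filter. The count higher in blood than in bone marrow, 1, became 3 with median centring, and 2 with plain library totals, with only the 2 compartments compared and with the replicate block. Leaving out one library gave 1 to 2. Dnaja1 entered each time, and Dnajb1 with median centring (adjusted p = 0.0438).

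Whether the replicate numbers pair libraries across compartments is not stated in the sources used here. Deviations of same-numbered libraries correlated at -0.071 to 0.108, which cannot exclude a shared experiment. With the replicate block Hsp90ab1 in tumor against bone marrow lost its call (0.42, adjusted p = 0.0805) and Dnaja1 in blood gained one (0.41, adjusted p = 0.0418). No other heat shock call changed with it. Hsp90ab1 also lost its call with no filter, a minimum of 5 reads and no intensity trend (adjusted p = 0.0607, 0.0522 and 0.0671). The causes were not tested.

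Plain library totals moved the median of all genes by 0.45 in both tumor comparisons, and turned 2194 higher and 2686 lower into 2923 and 1898 against blood, and 1745 and 2566 into 2601 and 1634 against bone marrow. Higher and lower calls against blood were 5534 and 3429 with no filter, 5740 and 3574 with at least 5 reads, 5871 and 3888 by voom on recovered reads, and 918 and 1644 with the stricter filter. Against bone marrow they were 4284 and 3067, 4469 and 3265, 5192 and 3722, and 849 and 1529. For blood against bone marrow (1605 and 1841) they were 2049 and 2603, 2231 and 2890, 2449 and 2912, and 1036 and 888. These settings tested 23861, 17714, 17714 and 3514 genes.

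Depth limits Hspb1 and Hspa1b, with 2 reads or fewer in all of blood and all of bone marrow.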
